A study of Homo sapiens with 12 samples.

Results

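The comparison described here asked whether co-culture changed a gene to a different extent in U373 than in U87MG, established human glioblastoma cell lines. For each gene it takes the co-culture effect in U373 (co-culture minus monoculture) and subtracts the co-culture effect in U87MG, so that a positive value means a more positive effect in U373. Its members are all 10585 genes, of 18665 with a named probe on the array (56.7%), that were above background on at least 3 of the 12 Illumina HumanWG-6 v3 arrays, and no measured effect chose them. There were 4 groups with 3 biological replicates in each: U373 cells co-cultured with U87MG cells, U373 monoculture, U87MG cells co-cultured with U373 cells, and U87MG monoculture. In co-culture, after 3 h of adhesion, the lines were kept for 72 h in 3 ml of common medium, separated by a porous membrane (0.4 µm), so that secreted factors could pass and cells could not touch. U373 cells always grew in the insert and U87MG cells always in the bottom chamber, in monoculture too, so that line and chamber cannot be told apart. Both lines came from a commercial repository, were not treated with any agent and were grown with serum.

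Values are intensities on a log2 scale, normalized by the authors, on which 1 unit is a factor of 2 for bright genes. Near background the scale flattens, which understates the effects of dim genes. The background limit of an array, the mode of its values plus 3 SD, lay between 4.38 and 5.63, and an array had 24.3% to 33.9% of its probes above it. The correlation between pairs of arrays ranged from 0.977 to 0.989 within a group. For pairs with 1 array from each line it ranged from 0.909 to 0.927. In U373 co-culture replicate 2, stress response genes stood apart from replicates 1 and 3, as given with those genes below. The number of arrays limits the precision: the median standard error of a difference was 0.242 on the log2 scale, and the median 95% interval reached 0.516 to either side.

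Cells that share medium exchange chemokines, cytokines and growth factors. Interleukin-1 and TNF activate the NF-kB pathway, in which RelA, RelB, c-Rel, p50 and p52 form dimers that bind kappaB sequences in promoters, and the same pathway induces its own inhibitors. Ligands of the EGF receptor family activate the MAPK pathway, which induces immediate early transcription factors such as those of AP-1 and feedback inhibitors of the DUSP, SPRY and SPRED families. Chemokines such as CXCL8 (interleukin-8) and CCL2 attract neutrophils and monocytes and are known to be secreted by glioblastoma cells.

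The promoters of the 3 genes with the largest log2 differences in the chemokine and cytokine list are shown because their mRNAs had large co-culture effects in U373. The sequences are the 250 bases before the transcription start in RefSeq (GRCh38.p14), read 5′ to 3′ in the direction of the gene, at chr4:73740319-73740568 on the plus strand for CXCL8, chr4:74099196-74099445 on the minus strand for CXCL2 and chr2:112836780-112837029 on the minus strand for IL1B. Capitals mark matches to a kappaB motif (GGNNNTTCC) or an AP-1 motif (TGANTCA), searched on both strands.
CXCL8: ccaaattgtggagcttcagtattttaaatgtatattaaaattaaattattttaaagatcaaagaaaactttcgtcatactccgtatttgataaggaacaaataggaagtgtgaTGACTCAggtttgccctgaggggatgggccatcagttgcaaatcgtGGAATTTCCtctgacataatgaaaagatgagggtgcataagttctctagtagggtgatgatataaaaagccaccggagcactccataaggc
CXCL2: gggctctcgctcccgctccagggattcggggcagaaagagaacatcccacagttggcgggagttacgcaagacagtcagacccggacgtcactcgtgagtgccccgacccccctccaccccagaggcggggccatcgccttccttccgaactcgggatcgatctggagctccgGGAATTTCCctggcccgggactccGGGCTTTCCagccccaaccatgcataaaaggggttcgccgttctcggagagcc
IL1B: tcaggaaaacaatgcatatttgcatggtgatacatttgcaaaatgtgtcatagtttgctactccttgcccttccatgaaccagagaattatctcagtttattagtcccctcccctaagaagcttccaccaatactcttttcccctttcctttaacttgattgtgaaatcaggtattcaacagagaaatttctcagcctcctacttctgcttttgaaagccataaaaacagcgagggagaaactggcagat
The CXCL8 window held 1 AP-1 match, from position -137 to -131 relative to the start, and 1 kappaB match, from -91 to -83. The CXCL2 window held 2 kappaB matches, from -77 to -69 and from -53 to -45, and the IL1B window held neither motif. Of the 12 windows looked up, those of ROPN1 and ALOX5AP, whose differences were negative, also held a kappaB match, from -176 to -168 and from -197 to -189. Of 35116 promoter windows of this length, 17.1% held the kappaB motif and 6.57% the AP-1 motif. A match is a description of letters and not a site of binding.

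CXCL8 was the only gene to pass the test of the difference with limma at a Benjamini-Hochberg adjusted p under 0.05, higher in U373 (0.00945% of the genes tested), and no gene passed in the lower direction (0%). The gene lies at chr4:73740569-73743716 (GRCh38.p14) and encodes the neutrophil chemokine interleukin-8. In U373 its intensity was 12.22, 13.77 and 11.97 in co-culture, against 7.66, 7.17 and 8.10 in monoculture. In U87MG it was 10.49, 11.81 and 11.10 in co-culture, against 10.13, 10.45 and 10.01 in monoculture. In each line all co-culture arrays lay above all monoculture arrays, but the gap was far wider in U373. In these bulk RNA values, more cells with the transcript and more transcript per cell cannot be told apart.

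The co-culture effect on CXCL8 was 5.01 in U373 (standard error 0.40, adjusted p = 2.96e-05), a 32.2-fold change, and 0.94 in U87MG (95% interval 0.08 to 1.80, adjusted p = 0.7), a 1.92-fold change. The difference was 4.07 (standard error 0.57, 95% interval 2.85 to 5.28, adjusted p = 0.0365 with limma), so that the fold change in U373 was 16.8 times that in U87MG. Read the other way, CXCL8 was higher in U373 than in U87MG by 1.52 in co-culture, whereas in monoculture U373 minus U87MG was -2.55. Both CXCL8 probes were above background on all 12 arrays, and the difference from the brighter probe alone was 3.79. Leaving out any 1 array gave differences of 3.51 to 4.41, the lowest without U373 co-culture replicate 2 (adjusted p = 0.00916). The adjusted p was above 0.05 without any of 7 arrays (U373 monoculture replicates 1 and 2, U87MG co-culture replicates 1 and 3, U87MG monoculture replicates 1, 2 and 3), where it was 0.113 to 0.270, and the size of the difference without these arrays was 3.75 to 4.16.

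**Figure D1:**
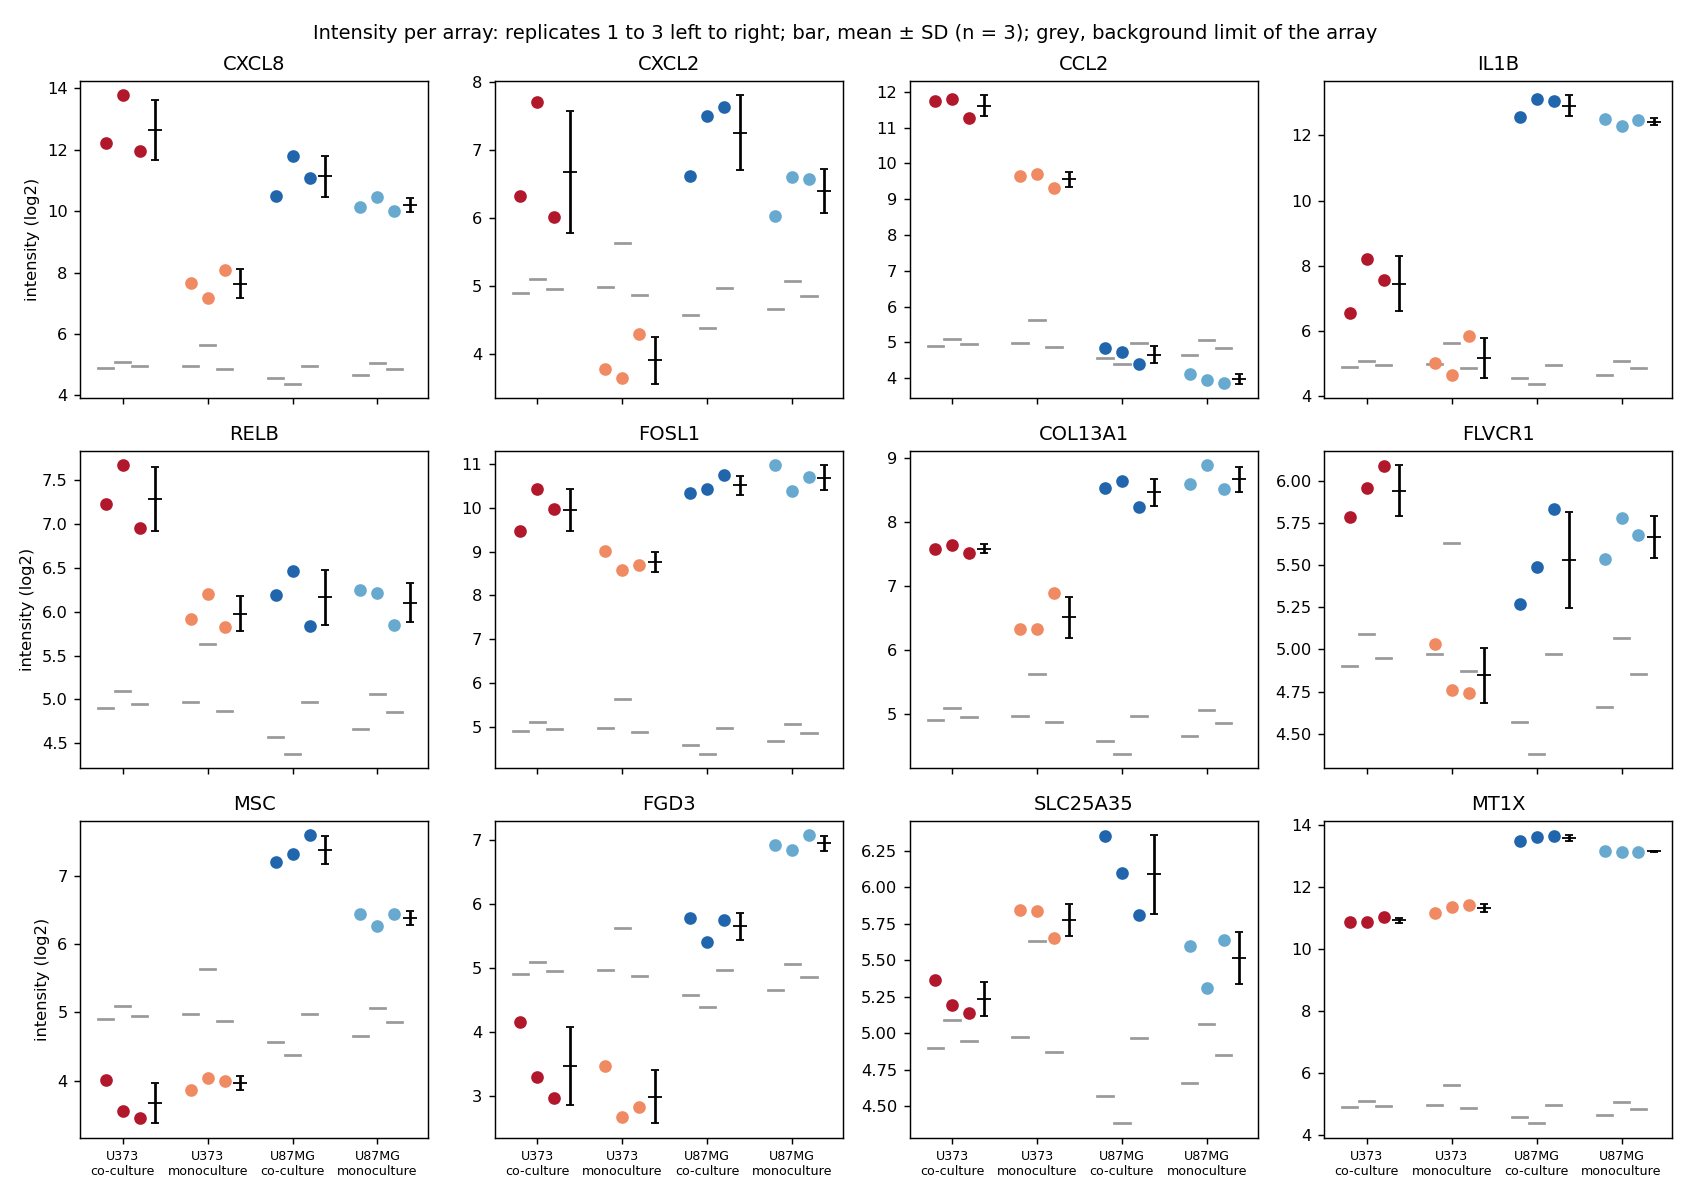
Log2 intensity of 12 genes on each of the 12 arrays, with replicates 1 to 3 from left to right in each group, the group mean ± SD (n = 3) as a black bar and the background limit of each array as a grey line; each panel has its own vertical scale. CXCL8 lay at 11.97 to 13.77 in U373 co-culture and at 7.17 to 8.10 in U373 monoculture, while its U87MG arrays lay between 10.01 and 11.81.

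Among secreted signals, CCL2, CXCL2 and IL1B also rose in U373 co-culture with limma, and none of them passed the test of the difference. CCL2, which attracts monocytes, was 11.75, 11.80 and 11.28 in U373 co-culture, against 9.64, 9.71 and 9.31 in U373 monoculture. It was 4.86, 4.72 and 4.40 in U87MG co-culture, against 4.12, 3.95 and 3.86 in U87MG monoculture. The groups did not overlap in either line, but in U87MG the gene was at background on every monoculture array and above it on 2 of 3 co-culture arrays, so that its effect there is flattened by the scale. The effects were 2.06 in U373 (adjusted p = 3.85e-05) and 0.69 in U87MG (adjusted p = 0.680), and the difference was 1.37 (95% interval 0.84 to 1.91, adjusted p = 0.214).

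CXCL2, a neutrophil chemokine of the CXC family, was 6.32, 7.70 and 6.02 in U373 co-culture and 3.78, 3.64 and 4.29 in U373 monoculture, where it was at background. In U87MG it was above background throughout, at 6.62, 7.51 and 7.63 in co-culture and 6.02, 6.61 and 6.57 in monoculture. CXCL2 was at least 2.87-fold higher in U373 co-culture than in U373 monoculture, where the dim arrays were set to the dimmest probe value that exceeded their limit. This bound was not itself tested. The fitted effects were 2.78 in U373 (adjusted p = 0.00586) and 0.85 in U87MG, with a difference of 1.92 (95% interval 0.82 to 3.02, adjusted p = 0.529). The levels in co-culture thus lay near each other in both lines (U373 minus U87MG was -0.57), whereas in monoculture U373 minus U87MG was -2.50.

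IL1B, the cytokine interleukin-1 beta, was 6.55, 8.22 and 7.58 in U373 co-culture and 5.02, 4.66 and 5.84 in U373 monoculture. In U87MG it was among the bright genes, at 12.56, 13.12 and 13.07 in co-culture and 12.49, 12.30 and 12.47 in monoculture. The U373 groups did not overlap and the U87MG groups were separated by a narrow gap. The effects were 2.27 in U373 (adjusted p = 0.0190, and 0.0872 without U373 co-culture replicate 2) and 0.49 in U87MG (95% interval -0.24 to 1.23), and the difference was 1.78 (95% interval 0.74 to 2.82, adjusted p = 0.556). The related cytokine IL1A had effects of 2.29 in U373 and 1.23 in U87MG and a difference of 1.06 (95% interval -0.58 to 2.70).

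Of 45 chemokines and cytokines, 21 were tested, and 4 had an unadjusted p under 0.05 in the difference, all higher in U373 (2.09% of all genes tested had such a p in this direction). They are CXCL8, CCL2, CXCL2 and IL1B. The median difference over the 21 genes was 0.25, beside -0.04 over all genes tested, and without U373 co-culture replicate 1 it was -0.01, with 7 such genes. Without that array, 426 of 10542 genes were higher at such a p. The median effect of the 21 genes was 0.119 in U373 and 0.205 in U87MG, so that by this measure the list did not rise more in U373. Among the other members, the difference was 0.82 (95% interval -0.40 to 2.04) for interleukin-6 (IL6), 0.96 (-0.09 to 2.02) for LIF and -0.42 for CXCL12. Among the receptors, ACKR3, which binds and removes CXCL12, had a difference of -0.99 (adjusted p = 0.676) and was at background in U87MG, and OSMR, the oncostatin M receptor subunit, had one of 1.00 (adjusted p = 0.684).

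**Figure D2:**
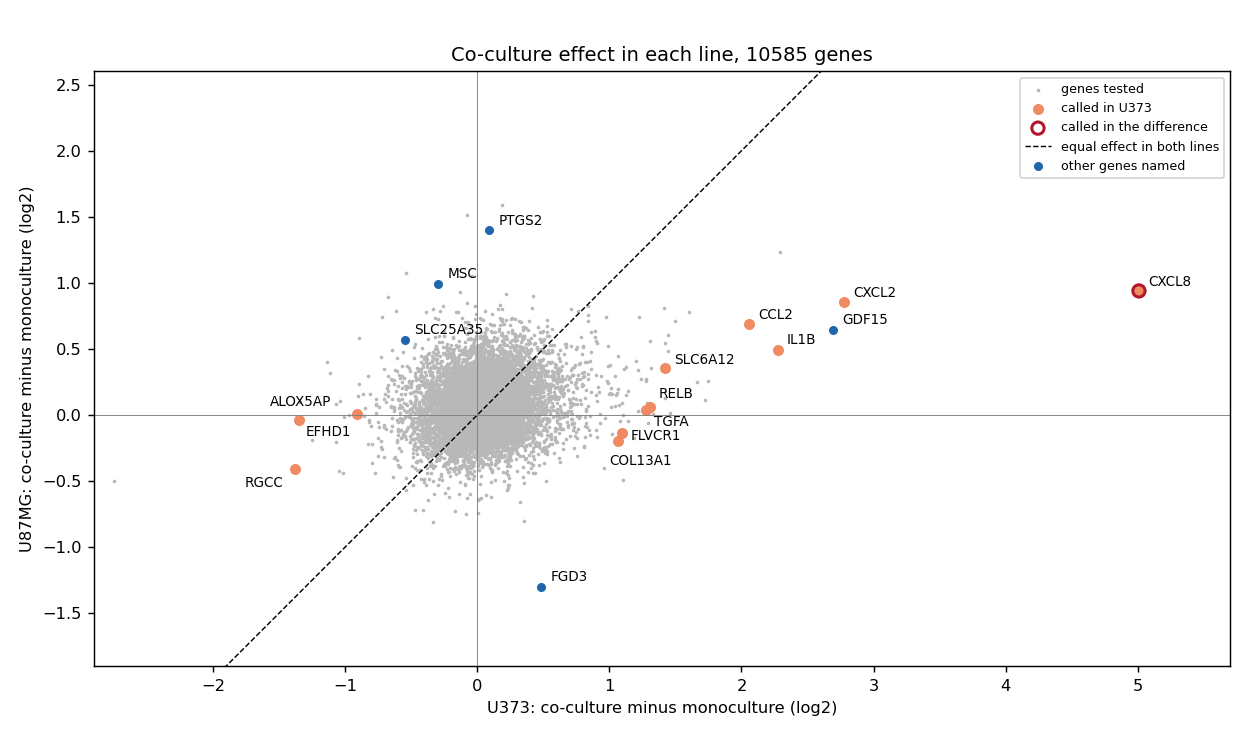
Co-culture minus monoculture in U373 (horizontal, log2) against the same in U87MG (vertical, log2) for the 10585 genes tested; the dashed line marks equal effects. CXCL8, at 5.01 and 0.94, lay farthest from this line, and the 12 genes past the test in U373 (orange) lay at -0.91 or below or at 1.07 or above on the horizontal axis.

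The NF-kB subunit RELB showed the pattern most plainly within this pathway. It was 7.23, 7.67 and 6.96 in U373 co-culture, against 5.92, 6.20 and 5.82 in U373 monoculture, while it was 6.20, 6.47 and 5.84 in U87MG co-culture and 6.25, 6.22 and 5.85 in U87MG monoculture. The U373 co-culture arrays thus stood above the other 9 arrays, which overlapped. The effects were 1.31 in U373 (adjusted p = 0.0223, and 0.125 without U373 co-culture replicate 2) and 0.06 in U87MG (95% interval -0.37 to 0.50), with a difference of 1.24 (95% interval 0.63 to 1.86, adjusted p = 0.360).

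TNFAIP3 (A20), a feedback inhibitor of NF-kB signaling, was 6.57, 7.74 and 7.31 in U373 co-culture and 5.18, 5.59 and 5.84 in U373 monoculture. It was 6.45, 7.78 and 7.05 in U87MG co-culture and 6.89, 7.0 and 6.62 in U87MG monoculture, where the groups overlapped. Its difference was 1.41 (95% interval 0.47 to 2.36, adjusted p = 0.676). Of 23 NF-kB subunits and feedback inhibitors tested, 6 had an unadjusted p under 0.05, all higher in U373 (RELB, TNFAIP3, BIRC2, RELA, NFKBIE and NFKB1), and the median was 0.41, with 17 positive and 6 negative differences. In the higher direction, 2.09% of all genes tested had such a p. Without U373 co-culture replicate 2, 3 of the 23 were higher at such a p, beside 181 of 10562 genes, and the median was 0.30.

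Of 17 NF-kB targets outside the chemokines, 3 had such a p higher in U373 and 1 lower (4.20% of all genes tested had such a p in the lower direction). VCAM1, an adhesion molecule for leukocytes, was 7.62, 8.47 and 7.23 in U373 co-culture and 6.36, 6.62 and 6.49 in U373 monoculture, whereas all 6 U87MG arrays were at background, so that no effect could be measured there. Its difference was 1.20 (adjusted p = 0.556). PLAU, the urokinase plasminogen activator, had effects of 0.72 in U373 and -0.07 in U87MG and a difference of 0.79 (adjusted p = 0.676). The lower one was PTGS2 (cyclooxygenase-2), which was at background on all 6 U373 arrays and had 7.14, 8.89 and 7.43 in U87MG co-culture and 6.25, 6.53 and 6.47 in U87MG monoculture. Its difference was -1.31 (95% interval -2.24 to -0.38, adjusted p = 0.676), and its U87MG effect of 1.40 did not pass the test (adjusted p = 0.518). IRAK2, a kinase of the interleukin-1 receptor complex, had a difference of 0.98 (adjusted p = 0.679), and MYD88, its adaptor, one of -0.59. They were the only members with an unadjusted p under 0.05 among 13 genes of interleukin-1 and TNF receptor signaling, as were OSMR and ACKR3 among 10 chemokine and interleukin-6 family receptors. Over all genes tested, 6.29% had such a p in either direction.

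The immediate early and MAPK feedback genes had the largest median difference of the 20 gene lists shown in the plot of list members, 0.73 over 28 genes, with 23 positive and 5 negative differences. None passed the test, and 10 of the 28 had an unadjusted p under 0.05, all higher in U373. Of all genes tested, 2.09% had such a p in this direction. The list was chosen with earlier results of these data known. FOSL1, an AP-1 subunit, was 9.47, 10.43 and 9.97 in U373 co-culture, against 9.02, 8.59 and 8.69 in U373 monoculture. It was 10.35, 10.44 and 10.75 in U87MG co-culture, against 10.97, 10.40 and 10.70 in U87MG monoculture. The U373 groups were apart and the U87MG groups overlapped, with a difference of 1.36 (95% interval 0.69 to 2.04, adjusted p = 0.360). ETV4, an ETS factor downstream of MAPK signaling, was at background in U373 monoculture and at least 1.10-fold higher in U373 co-culture, with a fitted difference of 1.16 (adjusted p = 0.455). MYC had a difference of 1.29 (95% interval 0.28 to 2.30), the phosphatase DUSP5 one of 1.35 (0.27 to 2.44), and the receptor signaling inhibitors SPRY2 and SPRED2 ones of 0.89 (0.13 to 1.66) and 0.70 (0.15 to 1.24).

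These values moved with 1 array. In U373 co-culture, replicate 2 was the highest of the 3 arrays for 19 of the 28 genes, and the median shift from the U373 monoculture mean was 0.28, 1.00 and 0.47 on replicates 1, 2 and 3. On the 9 other arrays the median shift from the monoculture mean of the line lay between -0.24 and 0.21. Without U373 co-culture replicate 2 the median difference was 0.42 and 6 of the 28 genes had an unadjusted p under 0.05, and without replicate 1 these were 0.80 and 16. All of these genes were higher in U373. Over all genes, those higher at such a p numbered 181 of 10562 without replicate 2 and 426 of 10542 without replicate 1.

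Among ligands of the EGF receptor family, TGFA rose in U373 co-culture (adjusted p = 0.0378, and 0.191 without U373 co-culture replicate 2). It was 9.50, 10.02 and 9.35 in U373 co-culture, against 8.47, 8.47 and 8.09 in U373 monoculture, and 8.03, 7.29 and 7.36 in U87MG co-culture, against 7.45, 7.29 and 7.82 in U87MG monoculture. Only the U373 groups were apart, and the difference was 1.24 (95% interval 0.56 to 1.92, adjusted p = 0.453). HBEGF, another ligand of the receptor, had effects of 0.96 in U373 and -0.40 in U87MG and a difference of 1.36 (95% interval 0.48 to 2.23, adjusted p = 0.619). The receptor gene EGFR itself had one of 0.26. Of 12 genes of this family tested, 10 had a positive difference and 2 an unadjusted p under 0.05, with a median of 0.29 (0.19 without U373 co-culture replicate 2). These 2 genes were higher in U373, as were 2.09% of all genes tested at such a p.

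**Figure D3:**
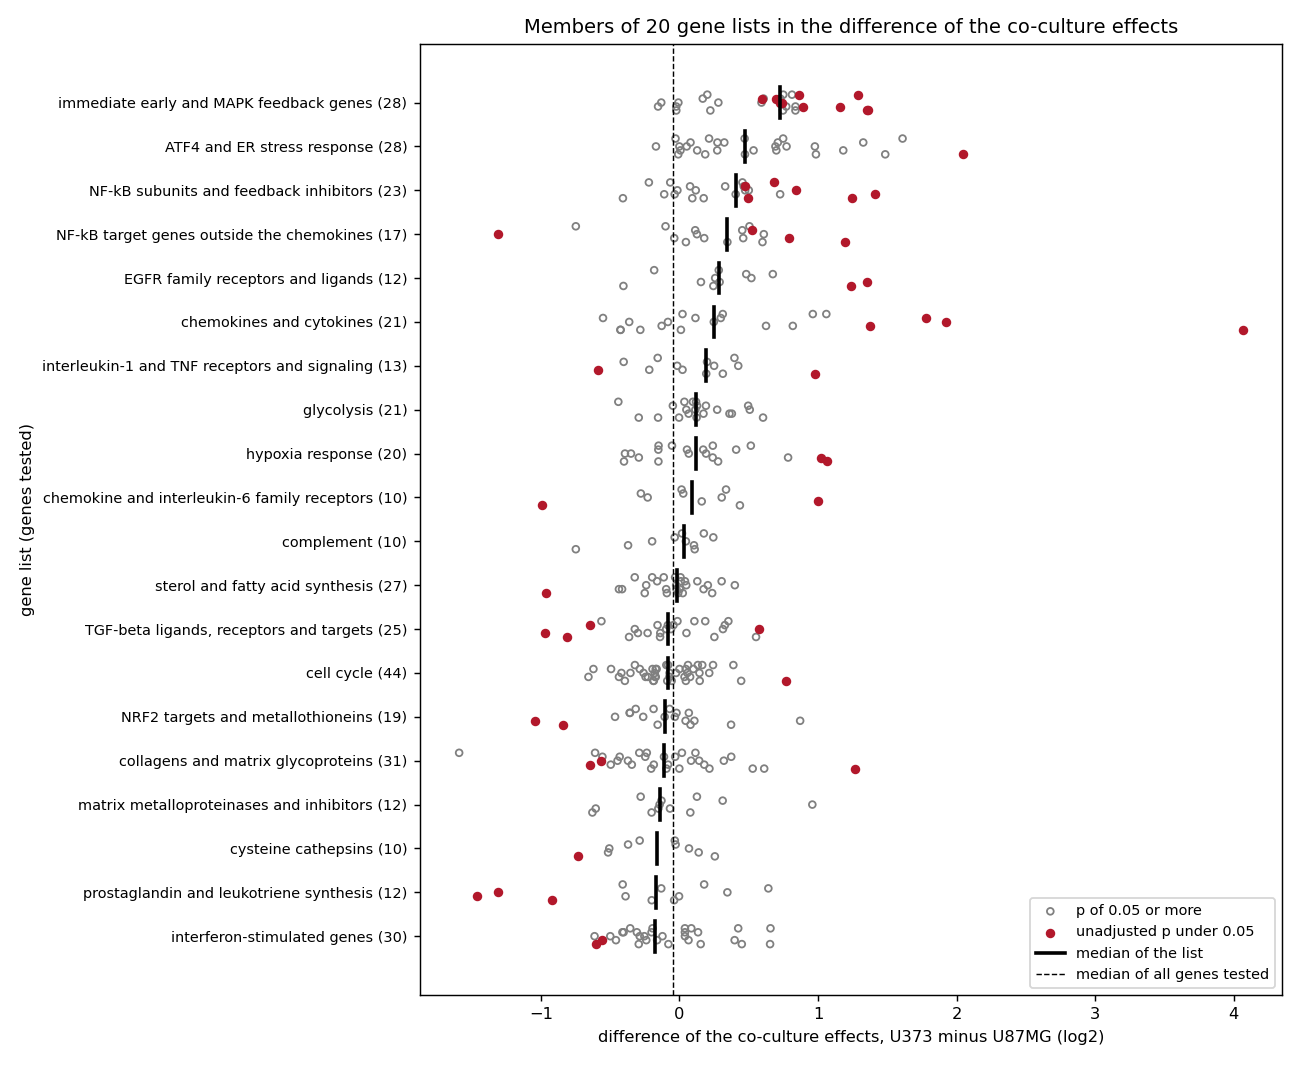
Difference of the co-culture effects (U373 minus U87MG, log2) for the tested members of 20 gene lists, ordered by the list median (black bar), with the median of all genes tested as a dashed line. The immediate early and MAPK feedback list had the highest median, 0.73, and CXCL8, at 4.07, lay apart from all other members.

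Genes of the ATF4 and ER stress response, which cells induce when amino acids are scarce or proteins misfold, had a median difference of 0.47 over 28 genes, with 24 positive and 4 negative differences. Only GDF15, a secreted stress cytokine of the TGF-beta superfamily, had an unadjusted p under 0.05. It was 9.27, 13.01 and 10.86 in U373 co-culture, against 8.09, 8.70 and 8.26 in U373 monoculture, and 9.58, 9.86 and 9.77 in U87MG co-culture, against 9.33, 8.87 and 9.06 in U87MG monoculture. The U373 co-culture replicates thus spread widely (SD 1.88, n = 3), and the difference of 2.05 had a 95% interval of 0.28 to 3.82 (adjusted p = 0.773).

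The same array stood apart for this list. U373 co-culture replicate 2 was the highest of the 3 U373 co-culture arrays for 27 of the 28 genes, and the median shift from the U373 monoculture mean was -0.10, 1.38 and 0.32 on replicates 1, 2 and 3. DDIT3 (CHOP), a transcription factor of this response, was 7.39, 11.75 and 9.22 in U373 co-culture and 7.80, 7.36 and 7.96 in U373 monoculture. Without replicate 2 the median difference of the list was 0.15, with 17 of 27 genes positive, and that of GDF15 was 1.07 (adjusted p = 0.991). Without replicate 1 the list median was 0.68. Then 12 of 28 genes were higher at an unadjusted p under 0.05, beside 426 of 10542 over all genes. The cell cycle genes ran the other way among these arrays: of 44, 37 were highest on replicate 1 and 1 on replicate 2, and their median difference was -0.09, with 17 positive and none lower at an unadjusted p under 0.05. Without U373 co-culture replicate 2 that median was 0.02, with 27 positive, and without U373 monoculture replicate 1 it was 0.01, with 23 positive. Without U373 co-culture replicate 1 it was -0.15. Lower at an unadjusted p under 0.05 were then 7 genes of the list, beside 576 of 10542 over all genes. The sign of the median thus depended on single arrays.

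**Figure D4:**
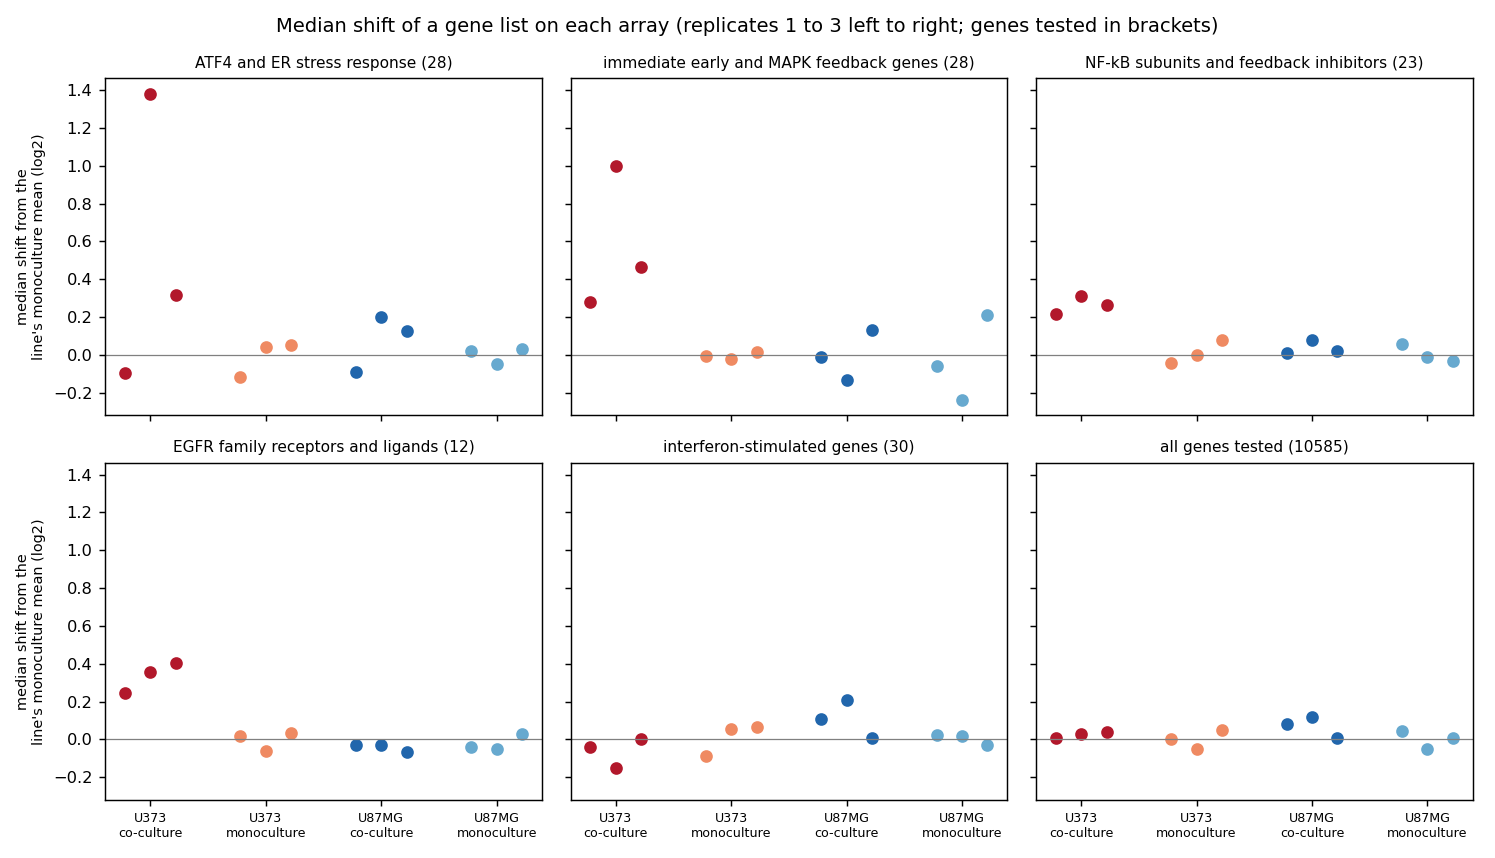
Median over the genes of a list of the shift of an array from the monoculture mean of its line (log2), for 5 gene lists and for all genes tested, with replicates 1 to 3 from left to right in each group. U373 co-culture replicate 2 stood at 1.38 for the ATF4 and ER stress response list and at 1.00 for the immediate early and MAPK feedback list, whereas the NF-kB list lay at 0.21 to 0.31 on all 3 U373 co-culture arrays.

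In U373 alone, 12 genes passed the test of co-culture against monoculture (0.113% of those tested, 9 higher and 3 lower), and in U87MG none did (0%, smallest adjusted p = 0.152). At an unadjusted p under 0.05 there were 1014 genes in U373, 742 in U87MG and 666 in the difference (6.29%). Leaving out U373 co-culture replicate 1 gave 160 genes past the test in U373, and leaving out replicate 2 gave 3, CXCL8, CXCL2 and CCL2, with adjusted p-values of 0.0872 to 0.191 for the other 9. Since the U373 effect is part of the difference, the sign of these 12 genes in both is no independent result, and their U87MG values are given beside it. FLVCR1, a transporter of heme and choline, was 5.79, 5.96 and 6.08 in U373 co-culture, against 5.03, 4.76 and 4.74 in U373 monoculture, and 5.27, 5.49 and 5.83 in U87MG co-culture, against 5.54, 5.78 and 5.68 in U87MG monoculture. Its effects were 1.10 in U373 (above background on 1 of 3 monoculture arrays) and -0.14 in U87MG (95% interval -0.48 to 0.21), and the difference was 1.23 (0.74 to 1.72, adjusted p = 0.214).

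COL13A1, a transmembrane collagen, was 7.58, 7.65 and 7.51 in U373 co-culture and 6.33, 6.33 and 6.89 in U373 monoculture. It was 8.53, 8.64 and 8.23 in U87MG co-culture and 8.60, 8.89 and 8.51 in U87MG monoculture, where the groups overlapped. The effects of 1.07 in U373 and -0.20 in U87MG (95% interval -0.57 to 0.17) gave a difference of 1.27 (0.74 to 1.80, adjusted p = 0.275). Of the 31 collagens and matrix glycoproteins tested it was the only one with an unadjusted p under 0.05 higher in U373, and 2 were lower, COL1A1 at -0.65 and COL5A2 at -0.57.

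For the remaining genes past the test in U373, U87MG gave little to compare with. SLC6A12, a betaine and GABA transporter, had an effect of 1.42 in U373 and was above background on 1 of the 6 U87MG arrays. ALOX5AP, which presents arachidonic acid to 5-lipoxygenase, fell by 0.91 in U373, and EFHD1, a mitochondrial calcium-binding protein, fell by 1.35. Both were at background on all 6 U87MG arrays. RGCC, a regulator of the cell cycle, fell by 1.38 in U373 and was above background on 1 of the 6 U87MG arrays. The differences were 1.06, -0.92, -1.31 and -0.97, with adjusted p-values of 0.676, 0.381, 0.431 and 0.679 in the order named.

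**Figure D5:**
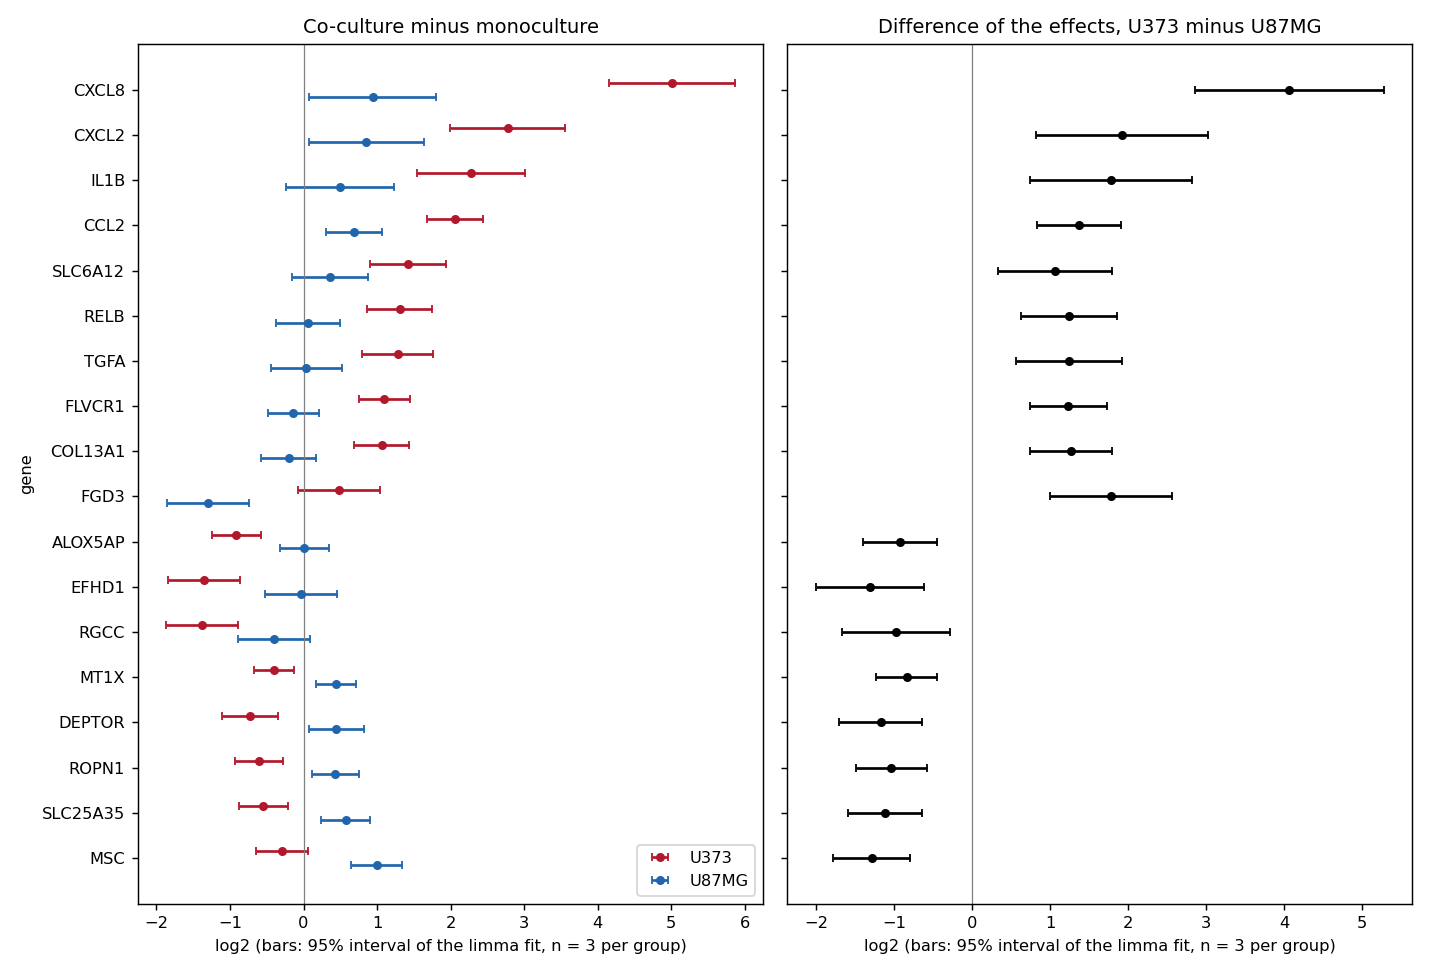
Left, co-culture minus monoculture in U373 and in U87MG with 95% intervals of the limma fit (log2, n = 3 per group); right, the difference of these effects with its 95% interval. The intervals of CXCL8 in the lines, 4.15 to 5.87 in U373 and 0.08 to 1.80 in U87MG, lay farthest apart, and MSC, at the bottom, had a difference of -1.29.

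In the other direction, the 5 genes with the smallest p in the difference were MSC, SLC25A35, ROPN1, DEPTOR and MT1X, none of which passed. SLC25A35, DEPTOR and MT1X had estimates below 0 in U373 and above 0 in U87MG, whereas MSC was at background in U373 and ROPN1 in U87MG, where no effect could be measured. These 5 genes, and FGD3 below, were picked by their p in this same comparison, so that groups lying apart are no independent result for them. MSC (musculin), a repressor of the basic helix-loop-helix family, was 4.01, 3.56 and 3.45 in U373 co-culture and 3.86, 4.04 and 4.0 in U373 monoculture, all at background. It was 7.20, 7.32 and 7.59 in U87MG co-culture, against 6.44, 6.26 and 6.43 in U87MG monoculture. Its U87MG effect of 0.99 (adjusted p = 0.152) had the smallest adjusted p in that line, and the difference was -1.29 (95% interval -1.78 to -0.79, adjusted p = 0.214).

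SLC25A35, a mitochondrial carrier, was above background on all 12 arrays, and its groups were apart in both lines in opposite directions. It was 5.36, 5.19 and 5.14 in U373 co-culture, against 5.84, 5.83 and 5.65 in U373 monoculture, and 6.35, 6.10 and 5.81 in U87MG co-culture, against 5.60, 5.31 and 5.64 in U87MG monoculture. The difference was -1.12 (95% interval -1.59 to -0.64, adjusted p = 0.291). MT1X, a metallothionein that binds zinc and copper, was 10.85, 10.87 and 11.02 in U373 co-culture, against 11.17, 11.36 and 11.41 in U373 monoculture, and 13.47, 13.61 and 13.64 in U87MG co-culture, against 13.15, 13.13 and 13.12 in U87MG monoculture. Here too the groups were apart in both lines, and the difference was -0.84 (95% interval -1.22 to -0.45, adjusted p = 0.319). MT1F, another metallothionein, had effects of -0.56 in U373 and 0.48 in U87MG and a difference of -1.04 (adjusted p = 0.478), whereas MT2A had a difference of 0.11. MT1X and MT1F were the only ones of 19 NRF2 targets and metallothioneins with an unadjusted p under 0.05, and the median of that list was -0.11. Over all genes tested, 4.20% were lower in U373 at such a p.

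DEPTOR, an inhibitor of mTOR, was 5.88, 5.33 and 5.65 in U373 co-culture, against 6.59, 6.40 and 6.06 in U373 monoculture, and 5.41, 5.12 and 5.17 in U87MG co-culture, against 4.96, 4.74 and 4.68 in U87MG monoculture. The groups of these probe means were apart in both lines, below in U373 and above in U87MG. DEPTOR had effects of -0.73 in U373 and 0.44 in U87MG and a difference of -1.17 (adjusted p = 0.319), and its 2 probes gave differences of -1.32 and -1.02. The U87MG effects of these probes were 0.69 and 0.19 in that order, and on the second the U87MG groups overlapped. ROPN1, a sperm protein, was 6.11, 6.05 and 6.39 in U373 co-culture and 6.75, 6.61 and 7.0 in U373 monoculture, with all U87MG arrays at background and a difference of -1.03 (adjusted p = 0.291). FGD3, an exchange factor for CDC42, is among the 5 smallest p of the higher direction although it was at background in U373. It was 5.78, 5.41 and 5.76 in U87MG co-culture, against 6.92, 6.84 and 7.08 in U87MG monoculture, groups that did not overlap. Its U87MG effect was -1.30 (adjusted p = 0.502) and its difference 1.78 (95% interval 1.00 to 2.57, adjusted p = 0.291).

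Of the prostaglandin and leukotriene genes, 12 were tested and 3 had an unadjusted p under 0.05, all lower in U373 (4.20% of all genes tested had such a p in this direction). They are ALOX5AP, PTGS2 and LTC4S, the leukotriene C4 synthase, whose difference was -1.46 (adjusted p = 0.494) and which was at background in U87MG. Each of the 3 was thus at background in 1 of the lines. Among 25 TGF-beta ligands, receptors and targets, 1 was higher (LTBP1, at background in U373) and 3 lower (TAGLN, RGCC and TGFBR1, the last at background in U373) by this measure. Of 30 interferon-stimulated genes, none was higher and 2 were lower, MX1 at -0.60 and EPSTI1 at -0.56, and the median was -0.18.

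The other lists had few such genes. The 20 hypoxia response genes had a median of 0.12, with 12 positive, and without U373 co-culture replicate 2, the highest U373 co-culture array for 14 of them, -0.14, with 7 positive. Among them VEGFA, the vascular endothelial growth factor, had a difference of 1.07 (95% interval 0.48 to 1.65, adjusted p = 0.455). Its U373 arrays were 5.91, 6.75 and 6.10 in co-culture, against 5.45, 5.55 and 5.50 in monoculture. Its U87MG arrays were 6.15, 6.58 and 6.63 in co-culture, against 6.78, 6.83 and 6.70 in monoculture. The groups of these probe means were apart in opposite directions, but the means include a probe at background on all 12 arrays. On both probes above background the U87MG groups overlapped, with differences of 1.57 and 1.34. CA12, a carbonic anhydrase, had a difference of 1.02. Of 27 sterol and fatty acid genes 1 was lower (TM7SF2, -0.96), and of 44 cell cycle genes 1 was higher (CCND1, cyclin D1, 0.77). None of 21 glycolysis genes, 12 matrix metalloproteinases and inhibitors and 10 complement genes had an unadjusted p under 0.05. The lowest difference of all was that of TXNIP, a glucose-responsive inhibitor of thioredoxin named here after its values were seen, at -2.25 (95% interval -4.04 to -0.46, adjusted p = 0.696), with 5.11, 4.25 and 4.53 in U373 co-culture and 7.27, 7.80 and 7.07 in U373 monoculture, while 4 of the 6 U87MG arrays were at background.

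Proteases are the subject of the study. Of 326 tested proteases of a list in its supplement, 8 were higher and 12 lower at an unadjusted p under 0.05, or 6.13% in either direction beside 6.29% of all genes tested, and the median was -0.05. Without U373 co-culture replicate 1 the counts were 19 higher and 13 lower of 324 proteases, beside 426 higher and 576 lower of 10542 genes. The smallest p-values among them were those of TNFAIP3 and PLAU in the higher direction and of ADAM23 (-0.61) and ADAMTS5 (-1.13) in the lower, the last 2 at background in U373. Of 8 genes selected by the study that were analysed here, none passed. GFPT2, which the study also selected, was not among the genes tested. CTSK, the cathepsin K gene, was 5.79, 4.88 and 5.13 in U373 co-culture, against 5.83, 5.65 and 5.81 in U373 monoculture, and 9.88, 10.38 and 9.92 in U87MG co-culture, against 9.99, 9.82 and 9.68 in U87MG monoculture. The groups overlapped in both lines, and the difference was -0.73 (95% interval -1.36 to -0.10, adjusted p = 0.773). It was the only one of 10 cysteine cathepsins tested with an unadjusted p under 0.05. On U373 co-culture replicate 2, CTSK lay below the background limit of 5.09. Without that array, 0 of the 10 cathepsins had such a p. TFRC, the transferrin receptor, had a difference of -0.04 (95% interval -0.44 to 0.36), the aminopeptidase ERAP2 one of -0.09 (-0.50 to 0.32), the adhesion receptor ADGRG1 (GPR56) one of 0.24 (-0.20 to 0.68), the carboxypeptidase CPE one of -0.39 (-1.11 to 0.33) and the inhibitor CSTB one of -0.29 (-0.70 to 0.13). PI3, an elastase inhibitor, and CD74, a chaperone of MHC class II molecules, were at background in U373, with differences of -0.78 (-1.81 to 0.26) and 0.07 (-0.42 to 0.56).

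Markers of the glial lineage differed in level between the lines. GFAP, the astrocyte intermediate filament, and SOX2 exceeded background on each U373 array and on no U87MG array, while VIM lay at 13.34 to 13.92 on all 12. Of 10 astrocyte and glioma identity genes tested, 2 had an unadjusted p under 0.05 in the difference, both lower in U373: SLC1A3, a glutamate transporter, at -0.66 (adjusted p = 0.653) and GJA1, a gap junction protein, at -0.65. Over all genes tested, 4.20% were lower at such a p. Markers of other cell types were mostly dim. Of 14 microglia and macrophage markers 4 were tested, of 8 endothelial markers 4, of 10 neuron markers 4 and of 8 oligodendrocyte markers 3. The median level of these lists on an array lay at 3.49 to 3.78, 3.92 to 4.52, 3.63 to 4.31 and 3.34 to 3.84 in that order. TEK and VWF, endothelial markers, had differences of -0.62 and -0.83 at an unadjusted p under 0.05. TEK was at background in U373 and VWF above it on 4 of the 12 arrays, and the part of such markers in the other results was not tested.

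Over all 10585 genes, 4574 differences were positive and 6011 negative, with a median of -0.04. The SD of the co-culture effects was 0.27 in U373 and 0.21 in U87MG, and that of the difference was 0.31. Effects of 1 or more on the log2 scale in either direction numbered 70 in U373, 7 in U87MG and 75 in the difference. The effects in the lines share no arrays, but the lines were co-cultured in common medium, so the effects are not independent. These effects correlated weakly across genes (r = 0.19, rho = 0.18, n = 10585 genes, which are not independent and were normalized together). At an unadjusted p under 0.05 in both lines there were 88 genes, of which 65 had the same sign, beside 1014 genes at such a p in U373 and 742 in U87MG. The median effect over all genes was 0.02 in U373 and 0.07 in U87MG, and whether the overlap exceeded that of unrelated effects was not tested.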

How the data were processed

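RNA of 12 cultures was measured on 12 arrays, 3 per group. The values deposited by the authors are natural log intensities after variance stabilization normalization (lumi) of BeadStudio signals; the log base was inferred from the range of the values. Division by ln 2 gave log2 values. The 12 signal columns of the non-normalized table match no sample by name and were not used. Of 48803 probes, 27578 are annotated to 1 gene, 13 to several and 21212 to none; the last kinds were not used for genes. Symbols follow RefSeq (GRCh38.p14), and probes of a gene were averaged.

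Groups follow the labels. Genes above background (mode plus 3 SD) on 3 or more arrays were fitted with limma 3.58.1 in R 4.3.3 as 4 group means, with Benjamini-Hochberg adjustment over 10585 genes and a threshold of 0.05. A step on simulated data with known changes tested the fit. Intervals are 95% intervals of the fit.

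Named genes are those past the difference test, the 5 smallest p in each direction, those past either line's test, up to 4 per list by p, and genes the study selected. Chosen after their values were seen were IL1A, IL6, LIF, CXCL12, NFKBIE, NFKB1, MYC, DUSP5, SPRY2, EGFR, DDIT3, MT2A, TXNIP and the cell type markers. Members and lists were chosen with earlier results of these data known. Lists are described by counts and medians without a set test. The p-values measure the spread between cultures, which the labels call biological replicates; each was set up in duplicate wells, and the chip of each array is not in the sources used here. Of 18 genes looked up for promoters, 12 were in the RefSeq table. Figures were drawn with matplotlib 3.10.9. Alternatives varied the background limit, the filter, the probe summary, the normalization, the prior, array weights, the replicate block and each array left out.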

Additional observations from a re-analysis of the deposited data

Results flagged for a closer look

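CXCL8 is the gene for which the co-culture effects differed between the lines by a test of the difference itself. The effect in U373 exceeded that in U87MG by 4.07 on the log2 scale, with an adjusted p of 0.0365 from limma. All 3 U373 co-culture arrays lay above all 3 U373 monoculture arrays, and the same held in U87MG with a smaller gap. Line and chamber cannot be told apart here, and no other gene had an adjusted p under 0.214.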

How the results depend on the processing

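Of the differences of the co-culture effects, 1 gene passed, and none passed with no filter on dim genes (0 genes, adjusted p = 0.0743 for CXCL8, 987 at an unadjusted p under 0.05), with a trended and robust prior (0 genes, adjusted p = 0.2, 655) or without U373 monoculture replicate 2 and U87MG co-culture replicate 2, the arrays at the extremes of the background limit (0 genes, adjusted p = 0.0888, 485; chosen after seeing the data). Leaving out 1 array gave 0 to 2 genes, the second being MSC without U373 co-culture replicate 1 (adjusted p = 0.0341). In U373, 12 genes passed, 21 with the trended and robust prior and 3 to 160 leaving out 1 array (160 and 3 without U373 co-culture replicates 1 and 2, 4, 6 and 22 without U373 monoculture replicates 1, 2 and 3, and 4 without U87MG monoculture replicate 1). In U87MG 0 passed, and 0 to 2 leaving out 1 array (MSC and FGD3 without U373 co-culture replicate 1). The labels do not say that a replicate number marks a shared well, batch or day. Deviations of same-numbered arrays correlated at -0.10 to 0.56, over 0.1 in 13 of 18 pairs (0.132 to 0.167 between the co-cultures of the lines), and the own number was the best match in 30 of 36 comparisons, a hint from the data and not from the design. Since not every pair was over 0.1, the main test had no block. With the number as a fixed block, 2 genes passed in the difference (CXCL8 and CCL2, adjusted p = 0.0238 and 0.0250) and 23 in U373, and as a random block 1 passed in the difference.

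Of the genes named by the rule, the differences of 3 changed sign under an alternative, and that of CXCL8 did not. P4HA1 was -0.39, and 0.021 with the brightest probe and with only probes above background; TFRC was -0.04, 0.01 with quantile normalization and -0.088 to 0.056 leaving out 1 array; CD74 was 0.07, and -0.091 to 0.197 leaving out 1 array. The cell cycle median was -0.27 with array weights, and that of the EGF receptor family 0.49 with the brightest probe and 0.42 with only probes above background. The immediate early median was 0.45 without the arrays at the extremes. With 3 arrays per group and a median 95% interval of 0.516 to either side, most genes with a smaller difference could not be told from genes with none, and genes at background in 1 line give no measured effect there.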
